A study of Macaca mulatta with 24 samples.

Results

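The ileum of 4 rhesus macaques 4 days after 7.4-Gy total-body irradiation (TBI) was compared with the ileum of 4 unirradiated macaques, across all genes of the array. All animals were young-adult males without known disease, and the controls were sham-irradiated. The 8 animals were chosen by their sample titles from the 24 of the series, and every other animal had also been irradiated. TBI was 1 uniform exposure to gamma rays from cobalt-60, with no other treatment named. The unirradiated animals are labelled day 4 and serve as the only controls of every dose and day. Beside these groups, ileum from 4 animals 4 days after 6.7-Gy TBI and from 4 animals on day 7 after 7.4-Gy TBI was used, so that dose and day could each be tested directly. The remaining animals, on day 7 after 6.7-Gy TBI and on day 12 after either dose, entered the fit and the choice of probes tested. Total RNA of each animal was hybridized to 1 single-color Agilent Rhesus Macaque array, from a segment of whole ileal wall with no pooling. The p-values thus measure the spread between animals, taken over all 7 groups of the series, and the 4 arrays of a group limit the precision. Values are log2 signals in which 0 is the 75th percentile of the array. Adjusted p is the moderated p-value of limma with the Benjamini-Hochberg correction across the probes tested, and a gene or probe is called higher or lower at an adjusted p under 0.05 with a change of at least 2-fold.

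The ileal epithelium is renewed continuously from stem cells at the base of the crypts, which divide fast and are killed by radiation, while the differentiated enterocytes of the villi absorb bile acids, vitamin B12, sugars, amino acids and fat and are shed within days. DNA damage stabilizes p53, a transcription factor that switches on genes for cell-cycle arrest, DNA repair and apoptosis. The ileum is also a lymphoid organ, with B cell follicles in Peyer's patches, plasma cells in the lamina propria and lymphocytes within the epithelium, and below the mucosa lie smooth muscle layers and the ganglia of the enteric nervous system. A piece of intestine holds all of these, so that in whole tissue fewer cells of a type and less RNA for each cell cannot be told apart.

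The label of the tissue fits its markers: FABP6, the ileal bile acid binding protein, had a signal of 8.78, 8.75, 8.75 and 8.66 in the 4 unirradiated animals and 8.47, 8.50, 8.48 and 8.44 in the 4 irradiated ones, and SLC10A2, the bile acid transporter of the terminal ileum, had 4.40, 3.59, 3.40 and 2.20 in the unirradiated animals and 2.09, 3.21, 3.21 and 3.19 in the irradiated ones. The probe of FABP2, the intestinal fatty acid binding protein, was well above background in only 1 animal of each group and is not informative here. Probes well above background made up 83.2% to 88.1% of an array in unirradiated ileum and 76.1% to 86.8% in irradiated ileum. Unirradiated replicate 1 stood apart. Over the 12 smooth muscle genes tested its mean signal was 1.76 below the mean of the unirradiated animals on the log2 scale, while the other unirradiated animals lay 0.56, 0.57 and 0.63 above it. The same animal was lowest for enteric neuron genes (-1.04) and fibroblast genes (-0.64) and highest for brush border genes (0.51). Among the irradiated animals replicate 1 was highest for smooth muscle (1.1) and lowest for brush border genes (-0.90). Counts of called genes are therefore also given without these 2 animals, a choice made after the data were seen.

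All 4 unirradiated arrays lay in position 1 of their slides and all 4 arrays of the irradiated group in position 2. The lower dose on day 4 has 2 arrays in each of these positions, and only through it could position be fitted beside group. Its arrays in position 1 lie on slides 5 and 6, of scan day 2. Those in position 2 lie on slides 1 and 2, of scan day 1. In that group position cannot be told apart from slide, scan day or differences between animals. Replicate 4 of the lower dose on day 4 had a brush border level of -1.96, beside 0.19, -0.23 and 0.035 in its other animals. The part of that animal in the fits with array position was not tested. Slides 3 and 4 hold 1 array of each of the 2 groups compared. With slide as a fixed block 647 probes were called.

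At 4 days after 7.4-Gy TBI, 842 of 36108 tested probes were called (2.33%), 577 higher (1.6%) and 265 lower (0.734%) than in unirradiated ileum. Taking for each gene the brightest of its tested probes, 368 of 13016 genes were called (2.83%), of which 257 were higher (1.97%) and 111 lower (0.853%). The median change of all genes tested was -0.045 on the log2 scale. More genes were called higher than lower also among the large changes: 35 called genes rose by at least 2 on the log2 scale and 16 fell by as much. In 340 of the 368 called genes the values of the groups did not overlap. Over all genes tested this held for 17.5% (9.37% higher and 8.13% lower after irradiation). A call rests on the same values, so that non-overlap among called genes is no separate result. The count of called genes was 175 without unirradiated replicate 1, 166 without irradiated replicate 1, and 92 without both, and with array position as a covariate it was 73. Of these 73 genes 47 were among the 368. The part of array position in these counts was not tested beyond this fit. Of the 842 called probes, all kept their direction when either animal or both were left out. With array position as a covariate 838 kept it, and 79 kept their call.

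**Figure D1:**
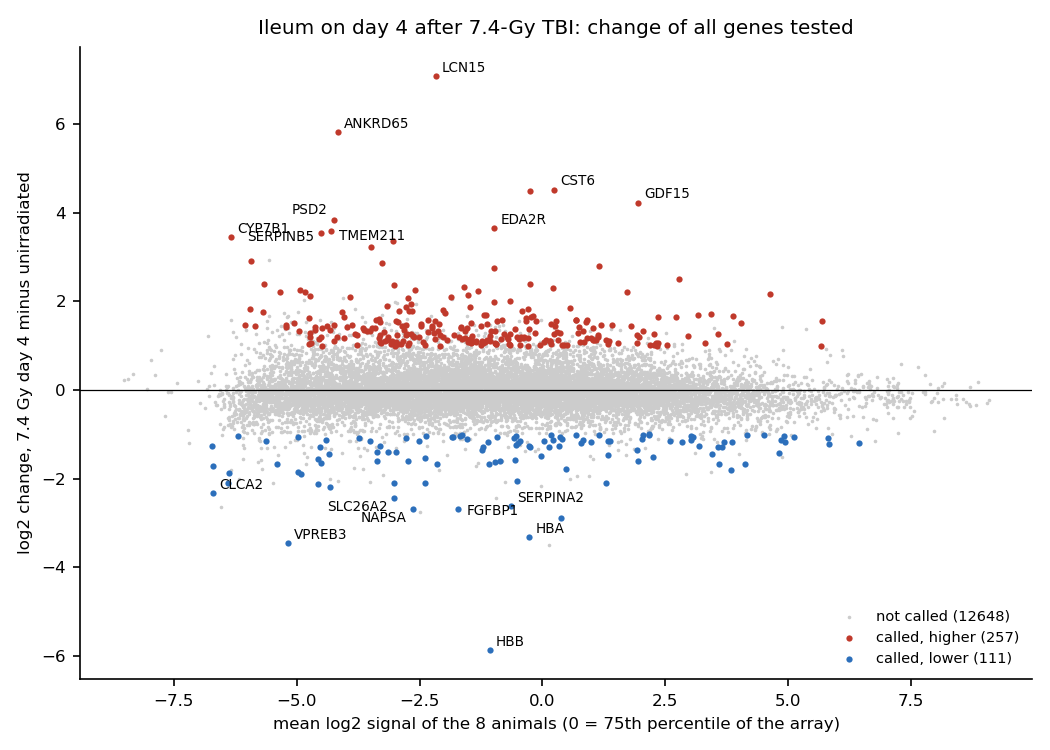
Log2 change of the 13016 genes tested (vertical axis, 7.4 Gy day 4 minus unirradiated) against their mean log2 signal over the 8 animals (horizontal axis). Each point is a gene by its brightest probe; the 257 genes called higher reach 7.10 for LCN15 and the 111 called lower reach -5.88 for HBB, and genes are called at dim and at bright signals.

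The largest rise was that of LCN15 (NCBI gene 721696), which encodes a secreted lipocalin. Its signal was -6.04, -5.51, -6.21 and -5.12 in the 4 unirradiated animals and 0.90, 1.02, 1.64 and 1.96 in the 4 irradiated animals, a change of 7.10 on the log2 scale (standard error 0.55, 137-fold, adjusted p = 3.1e-07). The largest rises and falls were taken among called genes whose groups did not overlap, so that separation of the groups is no further result for them. For LCN15, 3 of the 4 controls gave a signal well above background. ANKRD65 (NCBI gene 701643), which encodes a protein with ankyrin repeats, went from -8.09, -6.58, -8.28 and -5.35 to -0.82, -0.83, -0.98 and -2.35 (log2 change 5.83, standard error 0.50, adjusted p = 9.8e-07). In the controls its probe was above background in 1 animal only. CST6, an inhibitor of cysteine proteases (cystatin E/M), rose from -0.99, -2.23, -2.93 and -1.93 to 2.17, 2.26, 3.30 and 2.30 (log2 change 4.53, adjusted p = 0.00013).

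GDF15, a stress cytokine of the TGF-β family that p53 induces, had -0.27, -0.30, -0.23 and 0.083 and 4.15, 4.09, 4.65 and 3.33 (log2 change 4.23, 18.8-fold, adjusted p = 5.1e-07). The 4 controls lay within 0.5 log2 units of each other and all irradiated animals at least 3 log2 units above them. EDA2R, a receptor of the TNF receptor superfamily and also a p53 target, had -3.69, -2.63, -2.39 and -2.53 and 1.22, 0.46, 0.89 and 0.77 (log2 change 3.65, 12.6-fold, adjusted p = 3.1e-07).

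Other genes among the 15 largest rises were PSD2 (log2 change 3.84, adjusted p = 3.4e-05), an exchange factor for ARF6, TMEM211 (3.59, adjusted p = 0.0012), a transmembrane protein, SERPINB5 (3.54, adjusted p = 0.0016), the serpin maspin, and CNDP1 (3.36, adjusted p = 0.00013), the dipeptidase that cleaves carnosine. The probes of PSD2, TMEM211 and SERPINB5 were above background in 2 of the 4 controls each, and a second, dimmer probe of SERPINB5 changed by 1.52 and was not called. GPR110, an adhesion G protein-coupled receptor, rose by 3.22 (adjusted p = 0.007) and CLIC6, an intracellular chloride channel protein, by 2.86 (adjusted p = 0.0025), while a dimmer probe of CLIC6 changed by 1.20 without passing the test. H19, an imprinted noncoding RNA, rose by 2.79 (adjusted p = 0.00097), from -1.22, 0.21, 0.28 and -0.30 to 1.33, 2.84, 3.35 and 2.62. Neither CYP7B1, which hydroxylates oxysterols on the way to bile acids, nor DKK1, a secreted antagonist of Wnt signaling, was well above background in any unirradiated animal. Against the limit of detection CYP7B1 was at least 4.18-fold higher after irradiation (adjusted p = 0.00083, measured means -8.06 and -4.61, above background in 3 of 4 irradiated animals) and DKK1 at least 4.63-fold higher (adjusted p = 0.018, means -7.38 and -4.48).

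The largest fall was that of HBB (NCBI gene 715559), the β-globin gene of red blood cells, with 0.80, 1.38, 2.51 and 2.76 in the controls and -2.24, -4.45, -4.66 and -4.71 after irradiation (log2 change -5.88, standard error 0.62, 58.8-fold lower, adjusted p = 1.7e-05). Irradiated replicate 1 kept more signal than the other irradiated animals but lay below all controls, and a second probe was also called, though above background in only 1 irradiated animal. The α-globin gene HBA had 0.37, 0.75, 2.07 and 2.37 and -1.5, -1.80, -2.0 and -2.41 (log2 change -3.32, adjusted p = 9.4e-06). Globin probes may not separate near-identical copies of these genes. The probe of SERPINA2, a serpin, followed the same order over the controls, -0.28, 0.15, 1.37 and 1.44, and lay at -1.80, -1.97, -1.93 and -2.09 after irradiation (log2 change -2.62, adjusted p = 2e-05). Its values in the 12 irradiated animals of the day 4 and day 7 groups used here ran only from -2.17 to -1.78.

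The other large falls included genes of B cells and of dendritic cells. VPREB3, a component of the pre-B cell receptor complex, went from -3.69, -4.12, -3.58 and -2.44 to -6.97, -6.04, -7.62 and -7.01 (log2 change -3.45, adjusted p = 0.0012) and was above background in 1 irradiated animal. TLR10, a receptor of B cells, had -3.64, -3.51, -3.73 and -3.16 and -6.07, -5.43, -5.93 and -5.08 (log2 change -2.12, adjusted p = 0.0018), above background in 2 irradiated animals. The groups did not overlap in either gene, as the choice of genes required. CD1C, which presents lipid antigens on dendritic cells and B cells, was above background in no irradiated animal and was at least 1.94-fold lower (adjusted p = 0.013, means -5.35 and -7.44).

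FUT2, the fucosyltransferase that makes the secretor blood group antigens of mucus and enterocytes, went from -1.18, -1.54, -1.31 and -1.34 to -4.49, -2.61, -2.73 and -3.91 (log2 change -2.09, adjusted p = 0.00085). FGFBP1, a carrier protein of fibroblast growth factors, went from 0.37, -0.22, -1.20 and -0.42 to -3.13, -4.10, -2.28 and -2.70 (log2 change -2.69, adjusted p = 0.00077). Neither gene overlapped between the groups, as the choice of genes required, and the controls of FUT2 lay close together while the irradiated animals spread. SLC26A2, which carries sulfate, fell by 2.44 (adjusted p = 0.0049) and SLC23A2, which carries ascorbate, by 2.05 (adjusted p = 0.037), where a dimmer probe changed by -0.28 and was not called. The remaining genes were NAPSA, an aspartic protease (-2.69, adjusted p = 0.03, with a dimmer probe at -0.17), PON3, a lactonase of the paraoxonase family (-2.10, adjusted p = 0.041), PHYHD1, a dioxygenase (-2.10, adjusted p = 0.034), ACRC (-2.19, adjusted p = 0.017) and CLCA2, which was above background in no irradiated animal and at least 1.71-fold lower (adjusted p = 0.0081, means -5.53 and -7.86). With array position as a covariate HBA alone of the 15 largest falls was still called, against 11 of the 14 rises described (not SERPINB5, CYP7B1 and GPR110), and PHYHD1 turned in direction. NAPSA and SLC23A2 were not called in 6 of the 8 fits that leave out 1 animal and PON3 and PHYHD1 in 7, those without unirradiated replicate 1 among them. ACRC was not called without unirradiated replicate 1 or irradiated replicate 1 or 4, nor DKK1 without unirradiated replicate 1 or 2 or irradiated replicate 1. The remaining 23 of these genes were called in all 8 such fits. By the methods' t-test 9 of the rises described and 4 of the 15 falls were called. The rises PSD2, TMEM211, CYP7B1, DKK1 and H19 were not, and of the falls only HBB, VPREB3, NAPSA and TLR10 were. Without both animals that stood apart, 13 of the rises described and 8 of the 15 falls were called.

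**Figure D2:**
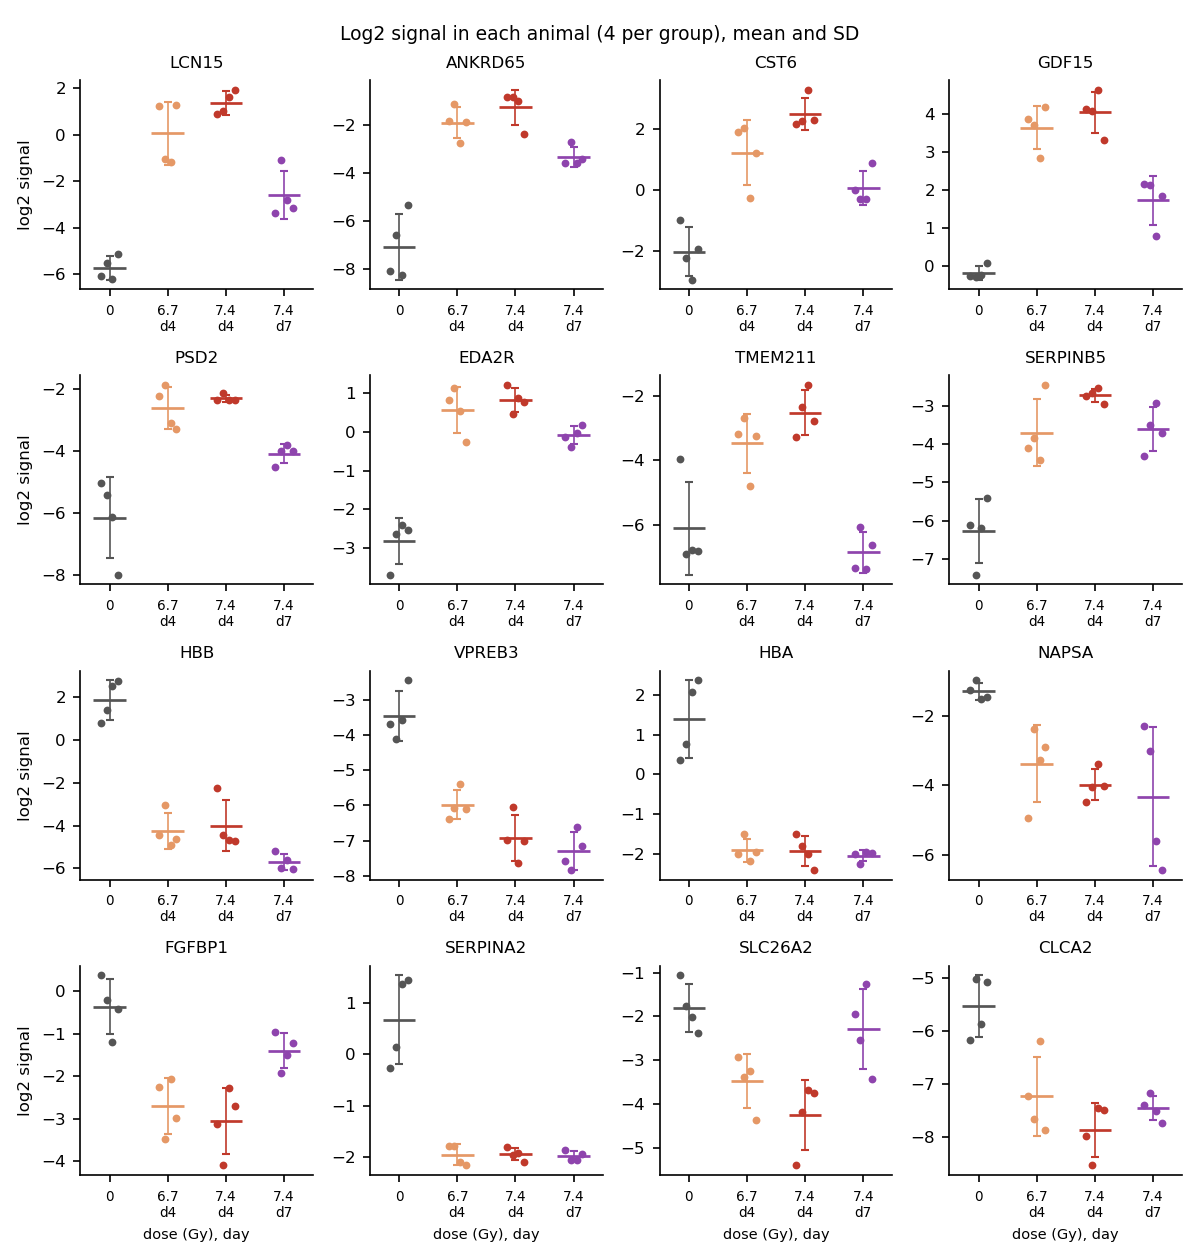
Log2 signal (vertical axes, 0 is the 75th percentile of the array) of 8 of the largest rises and 8 of the largest falls in every animal of 4 groups (horizontal axes: unirradiated, 6.7 Gy day 4, 7.4 Gy day 4, 7.4 Gy day 7). Points are animals, wide lines means and error bars SD (n = 4); in each panel the 4 animals 4 days after 7.4-Gy TBI lie on one side of all unirradiated animals, as the choice of genes required.

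The genes of known pathways and cell types were read from 61 lists, of which 926 genes were tested, and 85 of the 368 called genes belong to a list. Lists and members were chosen with earlier results of these data known, so that any ranking of the lists is a description. A list that held a call is given by its called genes and its median change, to be read against the 2.83% called and the median of -0.045 over all genes. Of these 85 genes 50 were also called without unirradiated replicate 1, 45 without irradiated replicate 1, 29 without both and 15 with array position as a covariate. Of the 102 called genes named here 54 were called in each of the 8 fits that leave out 1 animal. Among list genes NR0B2, VLDLR, ELAVL4 and CTGF were not called in 7 of these fits, and CLCA1, NR1H4, GSTA3, IL1R1, FN1, SFRP2, SNAP25 and F13A1 in 6. Of the genes named from the lists, other than the largest rises and falls described above, neither without unirradiated replicate 1 nor without irradiated replicate 1 were HMGCS1, VWF, CMBL, CPE, MYO1A, SLC2A2, NR0B2, NR1H4, FABP1, MSMO1, ANGPTL4, ECI2, GSTA1, CES2, GSTA3, VLDLR, PCK2, RSAD2, IL1R1, VCAM1, LUM, FN1, SFRP2, HAND2, SNAP25, ELAVL4, F13A1 and CTGF called. Without the former CLCA1, IDI1 and MT1E lost their calls, and without the latter ALDH1L2, MYC, CD14, FLT3, BCL2L14, MOGAT2, IER3 and LEF1 did. With array position as a covariate the lists that held a call were those of p53 targets, the BCL2 family, crypt stem cells, retinoid metabolism, the respiratory chain, cytosolic ribosomal proteins, lymphoid chemokines, erythroid cells, blood endothelium, metalloproteinases and complement, and the other 50 held none. The sign of the median turned for 13 lists with array position as a covariate and for 10 without both animals.

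Among these lists, chosen with earlier results of these data known, that of p53 targets had the most genes called higher. Of 29 tested, 10 were called higher and 1 lower, with a median change of 0.49. After GDF15 and EDA2R the largest rise was that of PHLDA3, a repressor of AKT signaling, from -3.06, -2.25, -2.41 and -1.77 to 0.52, 0.25, 0.31 and 0.46 (log2 change 2.75, standard error 0.22, adjusted p = 3.1e-07). The 4 irradiated animals lay within 0.3 log2 units of each other and well above the controls. The other members called higher, named after their values were seen because they complete the count, were DDB2 (2.52), which recognizes DNA damage, the kinase PLK2 (1.99), the RNA-binding protein ZMAT3 (1.90), the ribosomal protein RPS27L (1.73), TIGAR (1.58), a phosphatase of glycolysis, the death receptor FAS (1.1) and BAX (1.06), which opens the mitochondrial membrane in apoptosis. Adjusted p for these ran from 3.1e-07 to 0.00095. The only member called lower was CMBL, a hydrolase (-1.06, adjusted p = 0.019). The mean level of the list was between -0.087 and 0.073 in the controls and between 0.74 and 0.95 in the irradiated animals. The count called higher was 10 also without either or both of the animals that stood apart and with array position as a covariate, where FAS lost its call and CCNG1, a cyclin, gained one. It was 8 with normexp background correction, 8 with slide as a fixed block and 9 with scan day as a block. CMBL was not called without either or both animals or with array position, and BAX was not called without unirradiated replicate 4.

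The best known targets behaved less uniformly. CDKN1A, the cyclin-dependent kinase inhibitor p21, had 4.71, 3.68, 3.94 and 3.48 in the controls and 4.30, 4.84, 4.65 and 4.18 after irradiation (log2 change 0.54, adjusted p = 0.17), so that the groups overlapped through unirradiated replicate 1. MDM2, the ubiquitin ligase that degrades p53, changed by 0.31 at its brightest probe (adjusted p = 0.32) but rose by 2.08 at another (adjusted p = 3.1e-07), with group means of -3.11 and -1.03. Which transcripts the probes of MDM2 measure was not examined. Both other probes of BAX rose by less than 2-fold (0.98 and 0.80), as did a second probe of FAS (0.86).

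**Figure D3:**
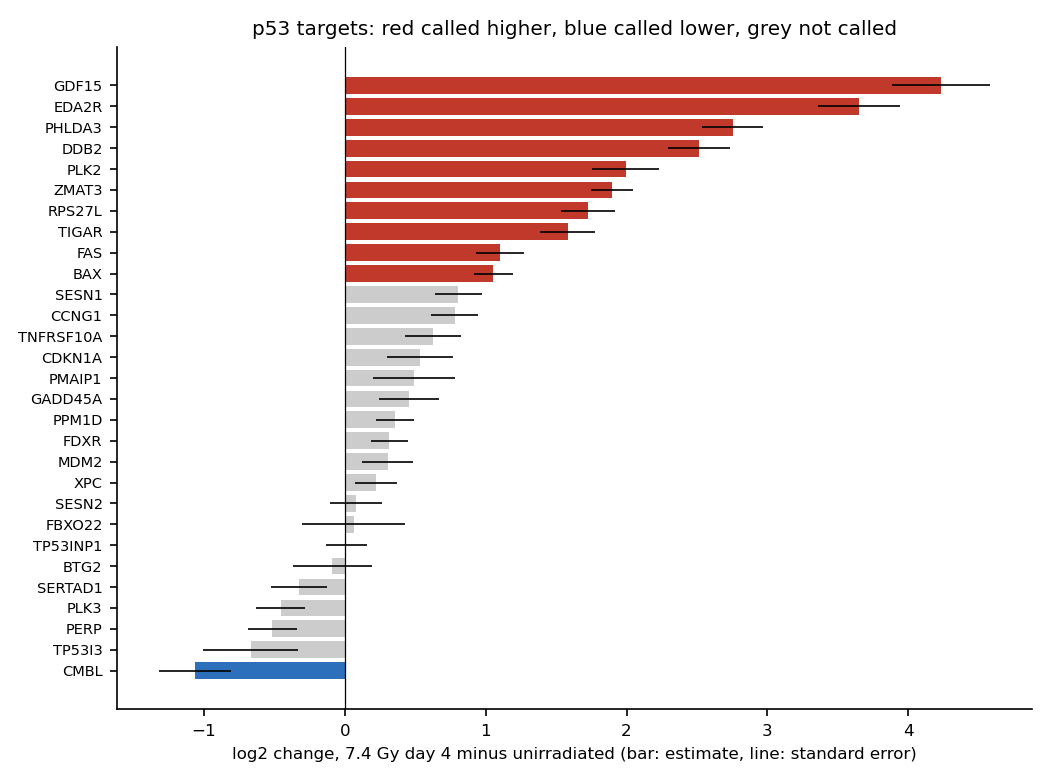
Log2 change 4 days after 7.4-Gy TBI (horizontal axis, bars; lines are standard errors) of the 29 tested p53 targets, each by its brightest probe. The 10 genes in red were called higher, from BAX at 1.06 to GDF15 at 4.23, CMBL in blue was called lower, and grey genes were not called.

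Genes of DNA repair and of the cell cycle gave few calls. In the BCL2 family, 12 genes were tested (median -0.26), and beside BAX only BCL2L14 was called (-1.16, adjusted p = 0.013, with a dimmer probe at -0.42 that was not called), while the survival factor MCL1 changed by -0.21 (adjusted p = 0.36). None of 28 DNA repair genes passed (median 0.14), with BRCA1 at 0.045 and -0.47 at its 2 probes. Of 31 DNA replication genes (median 0.19) TYMS, the thymidylate synthase, was called: it rose by 1.44 (adjusted p = 0.00051), from 0.79, 1.37, 1.04 and 1.1 to 2.42, 2.19, 2.69 and 2.78. The sliding clamp PCNA changed by 0.25 and the ribonucleotide reductase subunit RRM2 by -0.38. Of 27 mitosis genes 0 were called (median 0.086), with TOP2A at 0.025 (standard error 0.28) and CDK1 at 0.086 (standard error 0.29). The irradiated animals differed among themselves, since the mean level of the mitosis list was 0.40, -0.24, 0.35 and -0.10 in replicates 1 to 4, around the controls. With array position as a covariate the medians of the repair, replication and mitosis lists turned to -0.21, -0.41 and -0.81. Position was fitted through the 6.7-Gy day 4 animals, whose mitosis levels were 0.36, -0.40, 0.53 and 1.19 in replicates 1 to 4.

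Among crypt stem cell genes 2 of 14 were called, both higher, and 12 changed upward in value (median 0.55). ASCL2, the transcription factor that sets stem cell identity in the crypt, had -2.25, -2.26, -1.77 and -1.71 in the controls and -0.17, -0.33, -0.28 and -0.45 after irradiation (log2 change 1.69, standard error 0.19, adjusted p = 4e-05). EPHB3, a receptor that keeps crypt cells in place, had -2.47, -2.54, -2.18 and -1.64 and -0.52, -0.91, -0.34 and -0.97 (log2 change 1.52, adjusted p = 0.0015). Neither pair of groups overlapped. LGR5, the receptor for R-spondins that marks these stem cells, did not pass: its probes changed by 0.087 (adjusted p = 0.76) and -0.035. OLFM4 lay above all controls in all irradiated animals, -7.42, -7.42, -6.90 and -6.35 against -3.03, -4.44, -3.63 and -5.28, but did not pass (log2 change 2.93, standard error 1.34, adjusted p = 0.19) and was above background in 1 control. With array position as a covariate its direction turned (-3.25). Of the 18 genes of epithelial regeneration (median 0.42), SERPINB5 and the matricellular protein CTGF (1.24, adjusted p = 0.043) were called higher, whereas CLU (0.75) and the EGF receptor ligand EREG (0.13) did not pass.

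Among secretory cell types of the epithelium the goblet cell list (14.3% called) and the enteroendocrine list (11.1%) held calls, beside 2.83% of all genes. Each share rests on 2 genes. Of 16 genes of Paneth cells and antimicrobial peptides none was called (median -0.11, and -0.72 with array position as a covariate), and lysozyme, LYZ, changed by 0.43. Of 14 goblet cell genes (median -0.26) 2 were called, both lower. AGR2, a protein disulfide isomerase needed to fold mucin, went from -0.27, -0.21, -0.30 and 0.51 to -1.73, -1.96, -1.35 and -1.65 (log2 change -1.61, adjusted p = 0.0032) and CLCA1, a protease of mucus, fell by 1.08 (adjusted p = 0.028, with another probe at -0.97). The mucin MUC2 itself did not pass at either probe (0.29 and -0.16), nor did TFF3 (-0.36). Of 18 enteroendocrine genes (median -0.13), CHGB (1.26, adjusted p = 0.0043) and CPE (1.0, adjusted p = 0.044), which package and process peptide hormones, were called higher, and CHGA was called at its dimmest probe (1.15, adjusted p = 0.024), missed the 2-fold limit at another (0.999, adjusted p = 0.026) and did not pass at its brightest (0.90, adjusted p = 0.052). CPE was not called in 5 of the 8 fits that leave out 1 animal, and the list held 1 call without either animal that stood apart and 0 without both. Enteric neurons also express granins. The hormone genes GCG (-0.53) and NTS (-0.26) did not pass, and none of 11 tuft cell genes was called, with POU2F3 at -0.43 and TRPM5 at -0.20.

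Genes of absorptive enterocytes split. LCT, the lactase of the brush border, went from -3.36, -3.82, -3.76 and -3.64 to -2.42, -0.46, -2.32 and -1.62 (log2 change 1.94, adjusted p = 0.024). In the opposite direction VIL1, the villin that bundles microvillar actin, went from 4.24, 3.89, 3.43 and 3.70 to 2.10, 2.72, 2.71 and 2.63 (log2 change -1.27, adjusted p = 0.00085), and MYO1A, the brush border myosin, fell by 1.02 (adjusted p = 0.021). A second probe of LCT, above background in no control, was also called higher. In the remaining genes of brush border digestion no call was made (16 tested, median -0.37). The median was -0.18 without unirradiated replicate 1 and -0.048 without irradiated replicate 1, and it turned to 0.14 without both and to 0.88 with array position as a covariate. LCT, VIL1 and MYO1A were called neither without both animals nor with array position, MYO1A was lost without either animal, and LCT was lost without unirradiated replicate 2 or 3 or irradiated replicate 2 or 4. Of 15 genes of sugar, amino acid and peptide transport (median -0.27, turning to 0.38 with array position) 1 was called. This was the basolateral glucose transporter SLC2A2, which fell by 1.58 (adjusted p = 0.033). The apical transporters of glucose, SLC5A1 (-0.52), of peptides, SLC15A1 (-0.32), and of neutral amino acids, SLC6A19 (-0.27), did not pass. Of 17 genes of fat absorption (median 0.025) 2 were called. FABP1, a fatty acid binding protein, fell by 1.22 (adjusted p = 0.016) and MOGAT2, which rebuilds triglycerides, by 1.13 (adjusted p = 0.012, with a dimmer probe at -0.91), while APOB changed by 0.31. The median of this list was 0.87 with array position as a covariate and 0.37 without both animals, with 0 calls in either, and -0.084 with slide as a fixed block. SLC2A2 and FABP1 were not called without either of the animals that stood apart, and MOGAT2 was not called without irradiated replicate 1.

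Among 10 genes of ileal bile acid and cobalamin uptake (median -0.38, turning to 0.31 with array position as a covariate and to 0.037 without both animals that stood apart), the bile acid receptor and its target moved in opposite directions. NR1H4, the bile acid receptor FXR, went from 3.57, 2.84, 3.15 and 2.50 to 0.23, 2.49, 1.5 and 1.77 (log2 change -1.52, adjusted p = 0.034) and NR0B2, the repressor SHP that FXR induces, from -1.70, -1.68, -2.79 and -1.95 to 0.65, -1.51, -0.77 and 0.31 (log2 change 1.70, adjusted p = 0.04). In both genes irradiated replicate 1 had the value farthest from the controls, and neither was called without that animal or without unirradiated replicate 1. FGF19, the ileal hormone that FXR induces, was spread over more than 4 log2 units in the irradiated animals (-1.78, -2.89, -3.51 and 0.81, log2 change 0.82, adjusted p = 0.63). FABP6 lay below all controls in every irradiated animal, but by only 0.26 (adjusted p = 0.54), and SLC10A2 changed by -0.47 (adjusted p = 0.53).

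Cholesterol synthesis was lower as a whole in value. All 20 tested genes were below the control mean, with a median of -0.72, and 4 were called. These were MSMO1 (-1.29, adjusted p = 0.017), an oxidase of methyl sterols, STARD4 (-1.28, adjusted p = 0.0077), which moves cholesterol between membranes, IDI1 (-1.14, adjusted p = 0.0066), the isopentenyl diphosphate isomerase, and HMGCS1, the cytosolic HMG-CoA synthase. HMGCS1 had 4.11, 3.28, 2.98 and 3.81 in the controls and 2.30, 2.42, 2.73 and 2.59 after irradiation (log2 change -1.04, adjusted p = 0.026). The mean level of the list was 0.32, -0.13, -0.22 and 0.040 in the controls and -0.77, -0.88, -0.55 and -0.65 after irradiation, without overlap. Its median was -0.65 without unirradiated replicate 1 and -0.55 without both animals, where 1 gene and 0 genes were called.

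The mitochondrial respiratory chain was also lower in value. Of 39 subunit genes tested, 37 lay below the control mean (median -0.41), and none reached a 2-fold change with an adjusted p under 0.05. COX5A, a subunit of cytochrome c oxidase, had 5.19, 5.14, 5.10 and 5.01 in the controls and 4.37, 4.56, 4.62 and 4.33 after irradiation (log2 change -0.64, adjusted p = 0.016). NDUFA4 changed by 0.14 and -0.027 at its probes. The level of the list was between -0.042 and 0.033 in the controls and between -0.45 and -0.28 after irradiation, and its median was -0.35 without the 2 animals that stood apart. With array position as a covariate the median was -0.65 and 3 genes were called lower, beside -0.64 and 0 for cholesterol synthesis. Over 42 cytosolic ribosomal proteins the median was 0.012, and RPLP0 changed by -0.080. This median was 0.17 with quantile normalization, and -0.31 with array position as a covariate, where 1 gene was called lower.

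Of 20 genes of fatty acid oxidation and ketone synthesis 3 were called higher and 1 lower, and none of them without both animals that stood apart or with array position as a covariate. PDK4, the kinase that shuts pyruvate dehydrogenase, rose by 1.85 (adjusted p = 0.0077) and ANGPTL4, an inhibitor of lipoprotein lipase, by 1.07 (adjusted p = 0.03). In the same list ECI2, an isomerase of fatty acid oxidation, fell by 1.0 (adjusted p = 0.025), CPT1A changed by 0.34, and the median was -0.26. PDK4 and ANGPTL4 were also the only genes called among 10 that glucocorticoids induce (median 0.30), where TSC22D3 changed by -0.32. Of 22 genes of drug and steroid metabolism (median -0.42, -0.11 without both animals that stood apart and turning to 0.48 with array position as a covariate) 3 were called lower, the glutathione transferases GSTA1 (-1.81, adjusted p = 0.026) and GSTA3 (-1.06, adjusted p = 0.039) and the carboxylesterase CES2 (-1.18, adjusted p = 0.021), and none of them without unirradiated replicate 1. The direction of GSTA3 turned with array position as a covariate. Probes of GSTA1 and GSTA3 may detect each other's transcripts, and a second GSTA1 probe, at -1.68, did not pass. CYP3A4 changed by -0.14, CYP2J2 by 0.75 and the efflux pump ABCB1 by -0.28. CYP1A1, which the aryl hydrocarbon receptor induces, had 3.71, 3.29, -1.96 and 2.47 in the controls and 5.65, -5.20, -0.61 and -6.36 after irradiation, a spread of over 10 log2 units that left its change of -3.51 far from the threshold (adjusted p = 0.29). Of 17 genes of retinoid metabolism (median 0.025) 1 was called. ALDH1A2, an enzyme that makes retinoic acid and is found in stromal and dendritic cells, rose from -1.52, -0.72, -1.08 and -0.78 to 0.47, 0.80, 0.88 and 0.47 (log2 change 1.68, adjusted p = 6.7e-05), and RBP2, the retinol carrier of enterocytes, changed by -0.049.

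Other stress programs differed in their calls. None of the genes tested was called in the unfolded protein response (14 genes, median -0.35, and -0.95 with array position as a covariate), where HSPA5 changed by -0.47 and DNAJB9 by -0.21, in the heat shock response (13, median 0.13, HSPH1 -0.097 and 0.34), in the hypoxia response (17, median -0.16, CA9 0.91, VEGFA between -0.16 and 0.034 at its probes) or in the NRF2 response (10, median 0.13, HMOX1 -0.34, GCLM 0.075). Of 16 clock genes none was called, although PER2 lay below all controls in every irradiated animal (log2 change -0.97, adjusted p = 0.044, under the 2-fold limit). ARNTL changed by -0.10 and NR1D1 by -0.11. Of 5 metallothioneins, which bind zinc and copper, 2 were called higher (median 1.39). MT1X went from 3.31, 3.61, 4.04 and 3.17 to 4.11, 6.79, 5.48 and 6.44 (log2 change 2.17, adjusted p = 0.012), MT1E rose by 1.57 (adjusted p = 0.021) with another probe at 1.46, and MT2A was called at its dimmer probe (2.53, adjusted p = 0.0068) but not at its brighter one (1.39, adjusted p = 0.072). Probes of these closely related genes may not separate them, and irradiated replicate 1 was near the controls. Of 27 genes of the ATF4 pathway and one-carbon metabolism (median 0.24), which answer amino acid shortage, ALDH1L2 (-1.68, adjusted p = 0.011) and PCK2 (-1.42, adjusted p = 0.027), both mitochondrial enzymes, were called lower and VLDLR higher (1.40, adjusted p = 0.0495), while ASNS (0.98) and PHGDH (0.24) did not pass. The other 2 probes of VLDLR changed by 1.34 and 0.0042 and were not called. Without unirradiated replicate 1 the list held 1 call, and without irradiated replicate 1 or both animals none. Of 23 immediate early genes 5 were called, all higher, led by the small GTPase GEM (1.57, adjusted p = 0.01), the transcription factor EGR1 (1.46, adjusted p = 0.0031) and IER3 (1.26, adjusted p = 0.026), with MYC at 1.01 (adjusted p = 0.015). Yet the median of the list was -0.035 (0.023 with quantile normalization and 0.24 with array position as a covariate), and FOS changed by -0.86. The count of 5 was 2 without irradiated replicate 1, 1 without both animals that stood apart, 2 with normexp background correction and 0 with array position as a covariate.

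B cell genes had the lowest median of the 61 lists. Of 14 tested, 13 lay below the control mean (median -1.01), and 2 were called, VPREB3 and CD79B. CD79B, a signaling chain of the B cell receptor, had -0.18, -0.76, 0.13 and 1.17 in the controls and -1.1, -1.25, -0.95 and -1.34 after irradiation (log2 change -1.25, adjusted p = 0.016). Its partner CD79A changed by -1.42 (adjusted p = 0.076). MS4A1, the B cell antigen CD20, was well above background in all 4 controls and in no irradiated animal, and was at least 2.13-fold lower, but did not pass (adjusted p = 0.11, means -5.21 and -7.85). Unirradiated replicate 4 held the most B cell signal, and the level of the list was -0.27, -0.49, -0.023 and 0.78 in the controls against -1.17, -0.86, -1.08 and -1.34 after irradiation. CD79B was not called without unirradiated replicate 4 or without both animals that stood apart. Without unirradiated replicate 4 the median was -0.77, and with normexp background correction it was -0.53.

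Plasma cell genes showed a similar median, -0.86, with no call among 11. MZB1, a chaperone of antibody secretion, had 0.42, 0.77, 2.12 and 4.34 in the controls and -0.16, -0.30, 1.07 and -0.75 after irradiation (log2 change -1.95, adjusted p = 0.066), TNFRSF17, the receptor BCMA, changed by -1.78 (adjusted p = 0.067) and the joining chain JCHAIN by -0.86 (adjusted p = 0.18). In these genes the controls themselves spread widely and overlapped with the irradiated animals. None of 7 germinal center genes was called, and BCL6 changed by 0.84 (adjusted p = 0.05, under the 2-fold limit). Among dendritic cell genes FLT3, the receptor that dendritic cell precursors need, fell by 1.67 (adjusted p = 0.014) in addition to CD1C, and was above background in 2 irradiated animals. Their list had a median of -0.36. Its mean level, which includes CD1C and FLT3, was -0.77 after irradiation and did not overlap between the groups. FLT3 was not called without irradiated replicate 1, and neither gene without both animals that stood apart.

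The T cell list held 1 call. The median was -0.25 over 18 genes, with CD3E at -0.19 (standard error 0.23), CD4 at -0.23 and 0.40 at its probes and CD8A at -0.21 (standard error 0.30). LEF1, a transcription factor that naive T cells share with Wnt-responsive epithelium, was called higher (1.08, adjusted p = 0.018). None of 17 cytotoxic lymphocyte genes was called (median -0.34), with GZMB at -0.13, PRF1 at -0.20 and NKG7 at -0.019. In the list of type 3 innate and Th17 lymphocytes (5 genes, median -0.40) IL1R1, which fibroblasts also express, was called higher (1.06, adjusted p = 0.046, with a dimmer probe at 0.91).

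Of myeloid genes CD14, the endotoxin co-receptor of macrophages, rose by 1.14 (adjusted p = 0.011). It was the only call among 18 macrophage and monocyte genes, of which 16 changed upward in value (median 0.47, C1QA 0.47), and it was lost without irradiated replicate 1. Neutrophil genes gave no call in 9, with S100A8 at 1.45 (standard error 1.17) and CSF3R at -0.41, nor did mast cell genes in 10, with CPA3 at 0.31 and MS4A2 at -0.24. In the lists of eosinophils and platelets only 3 and 4 genes were tested and none was called. Of 9 erythroid genes HBB and HBA were the 2 called, and the median over the list was -0.30. None of 13 genes of MHC class II presentation was called (median -0.12, CD74 -0.019).

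Of 12 chemokines and survival factors of lymphoid tissue (median -0.029, 0.022 with normexp background correction) 2 rose. CCL19, which draws naive T cells and dendritic cells through CCR7, had -1.74, -1.98, -1.33 and -0.73 in the controls and 0.61, 0.88, 1.15 and 1.17 after irradiation (log2 change 2.40, 5.26-fold, adjusted p = 0.0031), and CCL21, which acts on the same receptor and is made by lymphatic endothelium, had 0.22, 0.40, 0.54 and 0.85 and 1.76, 2.23, 1.34 and 1.62 (log2 change 1.23, adjusted p = 0.0016). For both genes every irradiated animal lay above every control, but with array position as a covariate CCL21 was still called and CCL19 was not. CXCL13, which guides B cells into follicles, changed by 0.082 with a standard error of 0.81. Of 25 inflammatory cytokines and chemokines (median 0.31) CCL2, which recruits monocytes, was the 1 called: it went from -2.48, -2.84, -2.50 and -1.79 to -0.69, -0.11, -0.30 and -1.01 (log2 change 1.88, adjusted p = 0.0013). CXCL8 lay above all controls in every irradiated animal without passing (log2 change 1.16, adjusted p = 0.12), and IL1B changed by -0.082. Of 29 interferon-stimulated genes (median -0.11, 0.060 without unirradiated replicate 1 and -1.09 with array position as a covariate) RSAD2 was called lower (-1.44, adjusted p = 0.033), ISG15 changed by -0.34 and MX1 by 0.15, and CXCL10, a chemokine that interferon induces, changed by 1.3 (adjusted p = 0.23). With array position as a covariate MX1 turned to -1.22 and CXCL10 to -0.89. In this list unirradiated replicate 1 had the highest level of the controls (0.66), and RSAD2 was not called without it.

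**Figure D4:**
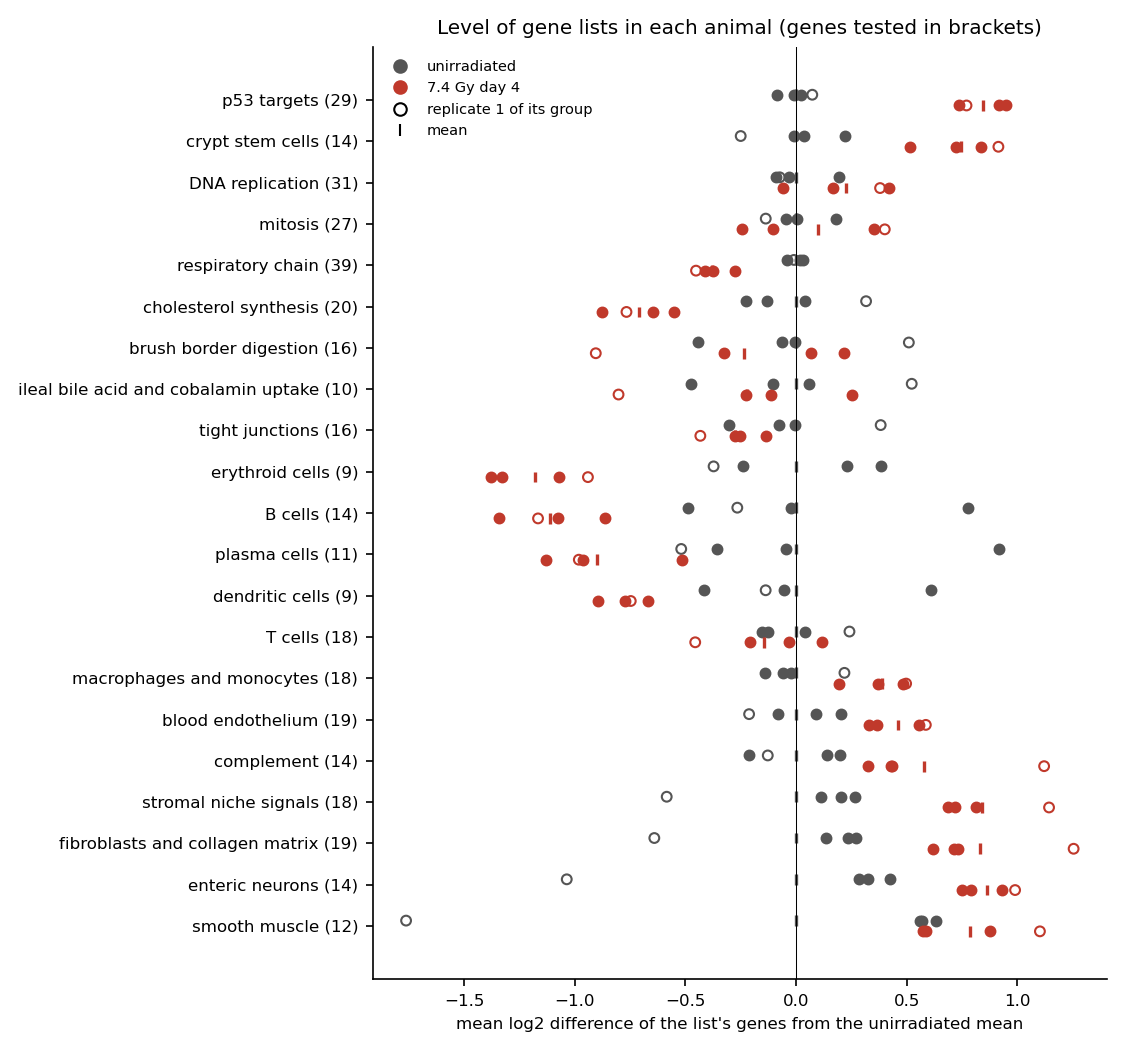
Mean log2 difference of the tested genes of 21 lists from the mean of the unirradiated animals (horizontal axis), with a row for each list, grey points for the 4 unirradiated and red points for the 4 irradiated animals, open points for replicate 1 of each group and ticks for group means. The p53, crypt stem cell, respiratory chain, cholesterol, erythroid, B cell and dendritic cell levels do not overlap between the groups. Nor do those of blood endothelium, complement, stromal niche signals, fibroblasts and collagen matrix, and enteric neurons. Unirradiated replicate 1 lies at -1.76 for smooth muscle and -1.04 for enteric neurons.

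Stromal genes were higher in value. Of 19 genes of fibroblasts and collagen matrix all changed upward in value (median 0.86) and 4 were called, among them the collagen-binding proteoglycans DCN (1.26, adjusted p = 0.0097) and LUM (1.09, adjusted p = 0.014) and fibronectin, FN1 (1.04, adjusted p = 0.044). Further probes of DCN (1.07, adjusted p = 0.018) and FN1 (1.11, adjusted p = 0.039) were also called, while another DCN probe (0.98) and 2 other FN1 probes (1.02 and 1.06) were not. COL1A1 was called at its dimmer probe (1.01) but not at its brighter one (0.69, adjusted p = 0.075), and PDGFRA changed by 0.44. Unirradiated replicate 1 was lowest and irradiated replicate 1 highest in this list, and without both animals the median was 0.49 with no call.

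Signals by which the stroma keeps the crypt went the same way, with 17 of 18 genes upward in value (median 0.80) and 4 called. GREM1, a BMP antagonist made below the crypts, had -1.29, 1.63, 1.0 and 1.12 in the controls and 2.92, 3.00, 2.83 and 2.58 after irradiation (log2 change 2.22, adjusted p = 0.0094), and RSPO3, the R-spondin that sustains LGR5-positive stem cells, had -6.23, -4.29, -4.41 and -4.92 and -2.99, -3.71, -2.97 and -3.08 (log2 change 1.77, adjusted p = 0.0057). Every irradiated animal lay above every control for both, and in both unirradiated replicate 1 was the lowest by more than 1 log2 unit. Of 2 dimmer probes of GREM1 1 was called (2.01, adjusted p = 0.0067) and 1 did not pass (0.24), nor did the dimmer probe of RSPO3 (0.16). SFRP2, a secreted modulator of Wnt signaling, rose by 2.11 (adjusted p = 0.037) with overlapping groups, and WNT2B changed by 0.38. Without unirradiated replicate 1, 3 genes of the list were called, and without both animals 0.

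MMP2, the gelatinase of fibroblasts, rose from 1.44, 2.17, 2.16 and 1.76 to 3.73, 3.76, 3.28 and 3.36 (log2 change 1.65, adjusted p = 0.00071) as the only call among 14 metalloproteinases and their inhibitors (median 0.69), with TIMP1 at 0.87, and the list kept 1 call without both animals that stood apart. Of 14 complement genes (median 0.60) 3 rose, among them C7, a part of the membrane attack complex, from 2.99, 3.41, 3.32 and 3.43 to 4.93, 5.08, 4.79 and 4.37 (log2 change 1.51, adjusted p = 0.00021) and the protease C1S by 1.17 (adjusted p = 0.011). The central component C3 (0.41), CFB (1.15) and C4BPA (0.14) did not pass. In the complement list 2 genes were called without both animals. Of 15 genes of coagulation and fibrinolysis (median 0.79) 3 rose, F13A1 (1.46, adjusted p = 0.047), the subunit of factor XIII that macrophages make, THBS1 (1.44, adjusted p = 0.011), a matricellular protein of platelets and stroma, and VWF (1.12, adjusted p = 0.041), the von Willebrand factor of endothelium, whereas F3 (0.016) and THBD (0.33) did not pass. In this list 1 gene was called without unirradiated replicate 1, 1 without irradiated replicate 1 and 0 without both.

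Of 19 endothelial genes 3 rose, VWF and 2 genes of venules and adhesion. DARC, the chemokine receptor of venular endothelium and red cells, had -0.67, 0.0082, 0.11 and 0.067 in the controls and 1.58, 1.71, 1.32 and 1.26 after irradiation (log2 change 1.59, adjusted p = 0.00083), and VCAM1, the adhesion molecule for lymphocytes and monocytes, rose by 1.01 (adjusted p = 0.027). PECAM1, which all endothelium carries, changed by 0.034 (standard error 0.21), and CDH5 by 0.55 (adjusted p = 0.025, under the 2-fold limit). The list had a median of 0.51 and, without both animals that stood apart, 0.34 with 1 call. None of 5 lymphatic genes was called (median 0.60, PROX1 0.40, FLT4 0.072).

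Enteric neuron genes had the highest median of the cell type lists, 1.02 over 14 genes, with 4 called, among them the transcription factor HAND2 (1.75, adjusted p = 0.033), the synaptic protein SNAP25 (1.62, adjusted p = 0.037) and the RNA-binding protein ELAVL4 (1.22, adjusted p = 0.046). Other probes of SNAP25 (0.85) and ELAVL4 (1.12) were not called. HAND2 had -5.23, -2.05, -1.72 and -2.46 in the controls and -0.87, -0.87, -1.38 and -1.34 after irradiation, with unirradiated replicate 1 far below the others, and without that animal no gene of the list was called and the median was 0.59. Without irradiated replicate 1 no gene was called either, and the median was 0.94. UCHL1 changed by 1.01 and VIP by 1.47, and the glial gene S100B by 0.93, none of them called. The smooth muscle list, with no call in 12 genes, went from a median of 0.88 to 0.22 without unirradiated replicate 1. Of 3 probes of ACTA2 the dimmest was called (1.06) and the others were not (1.07, adjusted p = 0.054, and 0.71, adjusted p = 0.13). How much of the rise in stromal genes goes with the share of muscle wall in each sample was not tested.

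Few calls fell in the remaining lists. None of 16 tight junction genes was called (median -0.35), and CLDN3 lay below all controls in every irradiated animal by less than 2-fold (-0.61, adjusted p = 0.037). Neither adipocyte genes (PLIN1 -1.23, adjusted p = 0.055, ADIPOQ 1.01) nor mesothelial genes (MSLN 0.52, UPK3B 0.38) passed.

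Dose was tested directly, on day 4, as 7.4-Gy against 6.7-Gy TBI with 4 animals each. Limma called 0 of 36108 probes (0%), where 153 passed without adjustment (p under 0.05 and at least 2-fold), and a robust limma fit with an intensity trend called 0. Against the same controls 353 probes (0.978%) were called after 6.7-Gy TBI. By the brightest probe 157 genes were called (1.21%), of which 95 were higher (0.73%) and 62 lower (0.476%). Among the 14 rises described, the 12 genes above background in at least 1 control had changes of 2.57 to 5.80 at the lower dose, beside 2.79 to 7.10 at the higher, but both comparisons share the controls. In the direct difference between the doses they ran from -0.75 for CNDP1 to 1.3 for LCN15, and the largest falls, without CD1C, which was above background at neither dose, ran from -0.93 for VPREB3 to 0.23 for HBB. The standard errors of these differences ran from 0.28 to 0.71, so that the absence of calls does not show that the doses acted alike. LCN15 had 1.23, -1.04, -1.16 and 1.28 at the lower dose and 0.90, 1.02, 1.64 and 1.96 at the higher, and GDF15 3.87, 3.71, 2.84 and 4.18 and 4.15, 4.09, 4.65 and 3.33.

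From day 4 to day 7 after 7.4-Gy TBI, 340 of 36108 probes were called (0.942%), 214 higher and 126 lower on day 7. At the level of genes 142 of 13016 were called (1.09%), 87 higher (0.668%) and 55 lower (0.423%). The genes described above were chosen by their values on day 4, which also enter this difference, so their return toward the controls is given as a description. All 14 rises described among the 15 largest were lower on day 7 and 6 of them were called: TMEM211 (-4.33, adjusted p = 0.00083), LCN15 (-3.96, adjusted p = 0.0011), CST6 (-2.43), GDF15 (-2.33), ANKRD65 (-2.07) and PSD2 (-1.78). TMEM211 had -7.35, -6.06, -7.37 and -6.61 on day 7, below every animal of day 4 and near 3 of the 4 controls. Its probe was above background in only part of the controls, so that its day 7 signal may lie near the limit of detection. LCN15 had -3.34, -1.07, -2.80 and -3.13 and GDF15 2.15, 2.14, 0.79 and 1.84, between the 2 other groups in every animal.

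Falls did not share 1 course. FUT2 (2.06, adjusted p = 0.002), PHYHD1 (2.17), SLC26A2 (1.96) and FGFBP1 (1.65) were called higher on day 7 than on day 4, and FUT2 with -1.44, -0.98, -1.31 and -1.76 lay around the controls. HBB, HBA, SERPINA2 and VPREB3 were below the controls in their means also on day 7, with differences from day 4 of -1.69, -0.11, -0.036 and -0.38 that did not pass. VPREB3 was above background in 1 animal on either day, so that its difference is close to the limit of detection, and CD1C was above background in no animal on either day, so that no difference is given. TLR10 was called lower on day 7 than on day 4 (-1.54, adjusted p = 0.021), at -7.80, -6.45, -7.16 and -7.25, and was above background in 2 animals on day 4 and 1 on day 7. Beside these, the largest differences called were CYP2D6 (2.48), a cytochrome P450, CHP2 (2.04), which binds sodium-proton exchangers, and DAK (1.96), the kinase of dihydroxyacetone, upward, and GPRC5A (-2.40), an orphan receptor of epithelium, downward. CHP2 was also called lower on day 4 (-1.78, adjusted p = 0.0053), whereas DAK (-1.52), CYP2D6 (-0.86) and GPRC5A (-0.41) were not.

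Among the lists, p53 targets were lower on day 7 than on day 4 (median -0.46, 6 called lower), and the level of the list on day 7 averaged 0.34 above the controls beside 0.84 on day 4. The respiratory chain moved by 0.49 in the median with no call, to an average of 0.092. B cell and dendritic cell levels averaged -1.38 and -1.1 on day 7 beside -1.11 and -0.77 on day 4, and those of T cells -0.65 beside -0.14. ASCL2 was called lower on day 7 (-1.06, adjusted p = 0.006), as were CCL2 (-1.16) and DARC (-1.14), while VIL1 (1.0, adjusted p = 0.0087) and FABP1 (1.07, adjusted p = 0.038) were called higher.

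**Figure D5:**
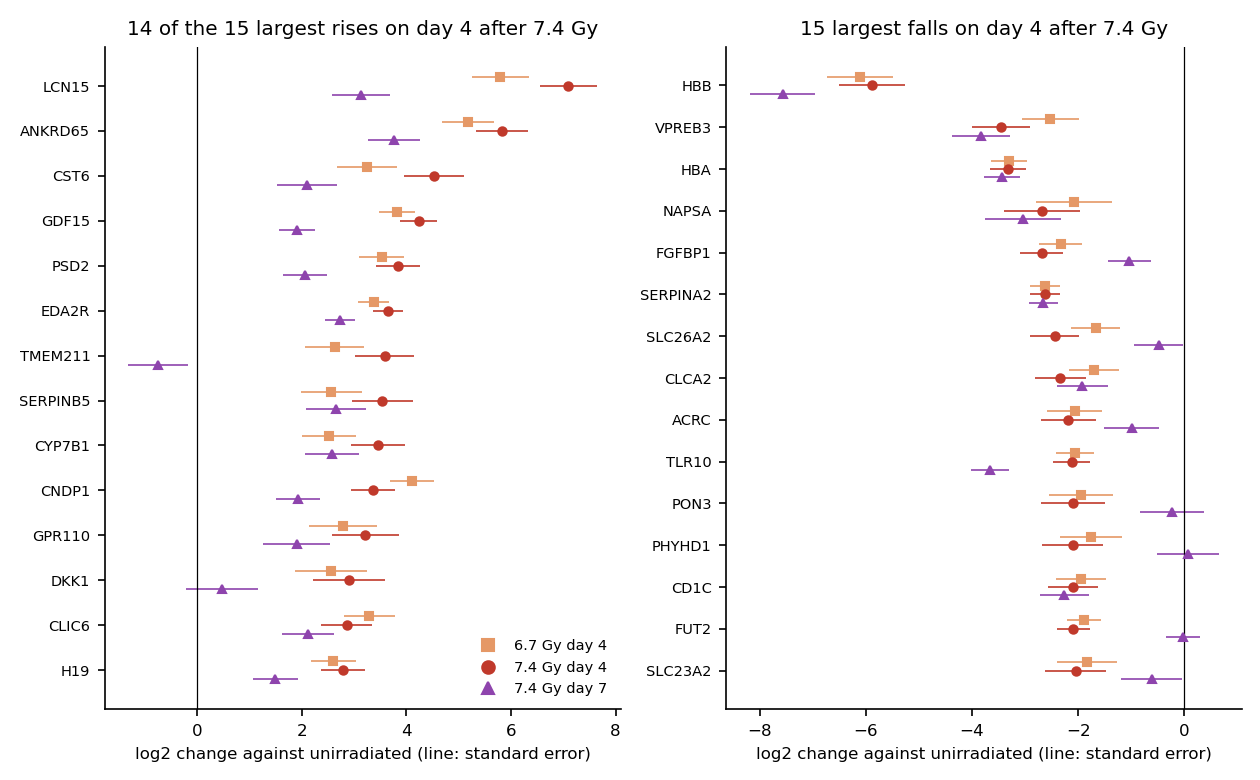
Log2 change against the same 4 unirradiated animals (horizontal axes) of 14 of the 15 largest rises (left) and 15 largest falls (right) 4 days after 7.4-Gy TBI, beside 6.7 Gy on day 4 and 7.4 Gy on day 7; symbols are groups of 4 animals and lines standard errors. Changes of CYP7B1, DKK1, CLCA2 and CD1C involve a group with no animal above background and are not measured folds. On day 7 FUT2 and PHYHD1 lie at 0 within their standard errors while HBB and HBA do not.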

How the data were processed

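Total RNA from ileum of 24 macaques was hybridized by the authors to 1-color Agilent 4x44 Rhesus v2 arrays. The deposited scanner files, written per the file headers by Agilent Feature Extraction 11.0.1.1, hold the background-subtracted intensity of each spot. The deposited table of log2 values was scaled by the authors to the 75th percentile of each array and centered on the median of each probe, and served as an alternative. No column of per-sample values was left unmapped (0). Authors' comparisons were not used.

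Here log2 intensity minus the 75th percentile of the array was taken over non-control spots, spots of a probe were averaged, and of 43603 probes 36108 were tested, those whose signal was well above background in all animals of 1 or more of the 7 groups. Limma 3.58.1 in R 4.3.3 was fitted once to 24 arrays with a mean for each group (17 residual degrees of freedom) and moderated by eBayes, with Benjamini-Hochberg adjustment over all tested probes. The steps were tested on simulated data. Of all probes, 21923 were named: 8074 by accession and 2936 by gene ID through a RefSeq table of another macaque assembly, 10898 by the authors' annotation and 15 by description. No genome position is given, because the array was designed on another assembly. Where no array of a group was well above background, folds are lower bounds against the lowest signal well above background on each array. The level of a list in an animal is the mean difference of its tested genes from the unirradiated mean.

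Named were the 15 largest rises and 15 largest falls among called genes whose groups did not overlap, fixed anchor genes of each list, up to 3 called members of each list in each direction, the other called p53 targets, and the 5 largest changes in each direction between doses and between days. Some genes that this rule selects are not reported here, though counts and medians include them. Members, lists and this rule were chosen with earlier results of these data known. Alternatives tried were quantile normalization, the percentile over detected probes, normexp background correction (offset 50, on spot and background medians), the authors' log2 table, other filters on dim probes, fits to the groups compared alone, trend and robust moderation, slide, scan day, array position and replicate number as terms, the methods' t-test, the mean of all probes of a gene, and leaving out each animal. Scan day and the joint omission of 2 animals were added after seeing the data.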

Additional observations from a re-analysis of the deposited data

Results flagged for a closer look

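In 30 of 528 sets of 4 animals examined (406 of single genes and 122 of list levels) 1 animal lay far from the other 3 by Dixon's ratio of its gap to the range. Chance flags about 1 in 20 groups, and 30 of 528 is near that share. Of the 30 sets 16 were unirradiated and 14 irradiated. The lowest irradiated (7.4 Gy, day 4) animal stood apart in its log2 signal of ANKRD65 (-2.35), SLC10A2 (2.09), RSPO3 (-3.71), VIL1 (2.10) and MOGAT2 (-0.71). The highest irradiated (7.4 Gy, day 4) animal stood apart in its log2 signal of CST6 (3.30), PSD2 (-2.16), HBB (-2.24), SLC6A19 (1.35), PDGFRA (-3.25), C4BPA (-1.30) and TIGAR (0.31). The lowest unirradiated animal stood apart in its log2 signal of UCHL1 (-1.28), DARC (-0.67) and F13A1 (-5.98). The highest unirradiated animal stood apart in its log2 signal of TMEM211 (-3.94), GCG (2.65), FABP2 (-5.67), GCLM (1.20), TNFRSF17 (-1.55), PRF1 (-0.11), PECAM1 (0.54), AGR2 (0.51) and C1S (0.90). For list levels, the lowest unirradiated animal stood apart in genes induced by glucocorticoids (-0.38), fibroblasts and collagen matrix (-0.64), smooth muscle (-1.76) and enteric neurons (-1.04). For list levels, the lowest irradiated (7.4 Gy, day 4) animal stood apart in mesothelium (-0.27). For list levels, the highest irradiated (7.4 Gy, day 4) animal stood apart in complement (1.12). Unirradiated replicate 1 is the animal of the smooth muscle, enteric neuron and fibroblast levels.

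Among the 29 genes described with the largest changes on day 4, 11 differed between day 7 and day 4 after 7.4-Gy TBI in the direct test of the difference by limma. On day 7 LCN15 (-3.96), ANKRD65 (-2.07), CST6 (-2.43), GDF15 (-2.33), PSD2 (-1.78), TMEM211 (-4.33) and TLR10 (-1.54) were lower on the log2 scale and FGFBP1 (1.65), SLC26A2 (1.96), PHYHD1 (2.17) and FUT2 (2.06) were higher. The genes were chosen by their day 4 values, which enter this difference.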

How the results depend on the processing

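The 842 probes called on day 4 became 485 with normexp background correction, 418 with only the groups compared, 144 with array position as a covariate, 125 by the methods' t-test (1083 unadjusted), 189 without both animals that stood apart, and 362 to 1004 when 1 animal was left out (401 without unirradiated replicate 1, 362 without irradiated replicate 1). The 0 probes between doses became 1 with array position as a covariate and 0 to 2 without 1 animal (2 without 6.7-Gy replicate 2). The 340 probes between days became 212 with normexp, 198 with only the groups compared, 197 with slide as a fixed block, 29 by the t-test, and 176 to 376 without 1 animal (176 without 7.4-Gy day 4 replicate 1). Array position could not be fitted for the days. With a replicate block 19 probes were called on day 4, 0 between doses (154 unadjusted) and 0 between days (745 unadjusted), but same-numbered animals share only a number, and their deviations correlated at -0.15, 0.07, 0.02 and -0.26. The share called higher, 68.5%, ranged from 63.1% to 73.9% over the scalings.

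The 102 called genes named here kept direction and call in 1841 of 2431 values, lost the call in 567 (97 genes) and turned in 2. The 101 genes not called turned in 121 values (51 genes) and passed in 30 (13 genes). With array position as a covariate direction turned in PHYHD1 (0.38), PCNA (-0.35), TOP2A (-0.93), CDK1 (-0.81), OLFM4 (-3.25), LYZ (-0.48), NTS (0.29), SLC5A1 (0.71), SLC15A1 (0.93), SLC6A19 (0.041), SLC10A2 (0.34), FABP6 (0.29), CYP3A4 (1.6), ABCB1 (1.17), RBP2 (0.52), NDUFA4 (-0.071), CA9 (-0.090), VEGFA (0.29), GCLM (-0.31), TSC22D3 (0.22), CXCL13 (-1.03), MX1 (-1.22), CXCL10 (-0.89), CD74 (0.47), C1QA (-0.054), S100A8 (-1.09), C4BPA (-0.24), GSTA3 (0.056) and CYP2D6 (0.34). A fixed slide block turned BRCA1 (-0.075), RBP2 (0.078), RPLP0 (0.067), IL1B (0.15), GZMB (0.15), NKG7 (0.024) and PECAM1 (-0.030). A scan day block turned BRCA1 (-0.023), RPLP0 (0.063), IL1B (0.060), GZMB (0.12) and NKG7 (0.023). The mean of all probes of a gene turned BRCA1 (-0.21), RPLP0 (0.013), HSPH1 (0.12) and CD4 (0.089). Within slides holding both groups the sign differed for TOP2A (-0.058), MUC2 (-0.15), NTS (0.014), FGF19 (-0.20), CYP3A4 (0.27), RBP2 (0.61), PHGDH (-0.050), TSC22D3 (0.052), NR1D1 (0.022), CXCL13 (-0.86), CD74 (0.12), CD8A (0.23), GZMB (0.57), PRF1 (0.016) and PECAM1 (-0.17). Quantile normalization turned RBP2 (0.041), RPLP0 (0.076), CD74 (0.10) and NKG7 (0.14). Normexp background correction turned GCLM (-0.0064), PECAM1 (-0.027) and EREG (-0.0071). When 1 animal was left out, the range crossed 0 for BRCA1 (-0.020 to 0.087), TOP2A (-0.078 to 0.19), CDK1 (-0.041 to 0.28), LGR5 (-0.036 to 0.16), NTS (-0.59 to 0.052), POU2F3 (-1.0 to 0.0012), FGF19 (-0.068 to 1.37), CYP3A4 (-0.52 to 0.26), RBP2 (-0.41 to 0.14), PHGDH (-0.066 to 0.43), HSPH1 (-0.23 to 0.029), ARNTL (-0.25 to 0.12), IL1B (-0.26 to 0.17), CXCL13 (-0.48 to 0.75), ISG15 (-0.61 to 0.065), MX1 (-0.12 to 0.41), CD74 (-0.20 to 0.18), CD8A (-0.49 to 0.054), GZMB (-0.43 to 0.20), NKG7 (-0.075 to 0.048), CPA3 (-0.19 to 0.72), MS4A2 (-0.43 to 0.015), PECAM1 (-0.084 to 0.31), FLT4 (-0.075 to 0.19), C4BPA (-0.84 to 0.52), F3 (-0.25 to 0.15), EREG (-0.16 to 0.46) and GPRC5A (-0.63 to 0.014). The cause was not tested. List medians turned sign in 56 of 1281 values (22 lists), but in none of the 16 lists with a median of at least 0.5 in size. Signals near background limit the dim genes, whose bounds are given in place of folds.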

Other observations

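Of the 842 probes called 4 days after 7.4-Gy TBI, 347 carry no gene symbol here and are not described. Of the 368 called genes, 283 belong to none of the 61 lists, and 26 lists held no called gene. The levels of 21 of the 61 lists did not overlap between the 4 irradiated and 4 unirradiated animals, 15 of them higher and 6 lower after irradiation. Lists without a call, such as the hypoxia response, are among them. How many lists would separate without an effect of irradiation was not tested.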
